A study of Mus musculus with 14 samples.

Results

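The matrix metalloproteinases, their tissue inhibitors, the ADAMTS proteases and the lysyl oxidases were followed in mouse livers with spontaneous autoimmune hepatitis (AIH). The members were the protein-coding genes whose symbol is Lox or starts with Mmp, Timp, Adamts or Loxl followed by a digit. This gave 50 of the 21870 protein-coding genes in the count files, namely 22 Mmp, 4 Timp, 19 Adamts and 5 lysyl oxidase genes. Bulk RNA-seq of a piece of the left liver lobe gave 14 libraries in 3 groups. The AIH group held 5 libraries of untreated Tet2fl/fl vav cre+ mice aged 20 weeks that had developed hepatitis spontaneously. The asymptomatic group held 5 libraries of mice of the same genotype, treatment and age without symptoms. The control group held 4 libraries of untreated Tet2fl/fl cre- littermates of that age, whose phenotype label reads healthy WT. By the genotype labels all 3 groups carried the floxed Tet2 allele and the controls lacked cre, and WT is taken here to mean without cre, which the labels do not spell out. Tet2 encodes an enzyme that oxidizes methylated cytosine, and the Vav promoter drives Cre in blood-forming cells, so the deletion is aimed at blood cells and not at hepatocytes. The labels do not say how the hepatitis was scored, and the effects of cre itself and of losing Tet2 cannot be told apart with these controls.

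Matrix metalloproteinases are zinc proteases that cut collagens, elastin, proteoglycans and signalling proteins outside the cell, and the TIMP proteins bind and block them. ADAMTS proteases are secreted relatives that trim procollagen and cleave large proteoglycans such as versican. Lysyl oxidases are copper enzymes that oxidize lysine in collagen and elastin, so that fibres become crosslinked. In injured liver, stellate cells and fibroblasts are known sources of matrix and of several of these enzymes, while neutrophils carry Mmp8, Mmp9 and Mmp25 proteins in their granules.

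The libraries were of like depth, with 17.3 to 18.2 M reads assigned to genes in AIH (M, units of 1000000), 16 to 18 M in asymptomatic and 17.7 to 18.9 M in control libraries. The summed level of 6 hepatocyte markers, among them Alb, was 87352 to 161989 CPM (counts per 1000000 counts) in AIH, 120230 to 145511 CPM in asymptomatic and 114485 to 154923 CPM in control libraries, so liver markers were abundant in each. Tet2 itself was at 7.34 to 15.4 CPM in AIH, 4.77 to 9.23 CPM in asymptomatic and 8.53 to 12 CPM in control libraries, with log2 fold changes of -0.03 ± 0.27 (SE; adjusted p = 0.945) in AIH and -0.65 ± 0.27 (adjusted p = 0.435) in asymptomatic against control. Counts summed over the whole gene in bulk liver, where most cells lie outside the blood lineages that vav drives, do not check the deletion. By their Xist and Y-linked counts, the AIH libraries came from 4 females and 1 male, the asymptomatic libraries from 5 males, and the controls from 2 of each sex. Sex and group were therefore entangled, most of all between AIH and asymptomatic livers, which share only the male AIH 4. The share of unaligned reads was 3.23% to 6.54% in AIH, 4.93% to 9.27% in asymptomatic and 4.17% to 4.89% in control libraries. Within the asymptomatic group it was 4.93% in asymptomatic 2 and 7.8% to 9.27% in the others. Values below are CPM scaled by TMM (trimmed mean of M values), and libraries are numbered within each group in the order of their deposit, which pairs nothing. The numbers in the library titles run 11 to 15 in AIH, 5 to 10 in asymptomatic and 1 to 7 in control libraries, and if they follow the order of preparation, that order and AIH cannot be told apart. The labels do not state that each library is a separate animal, so p-values measure the spread between these samples. In bulk tissue, a change in the number of cells of a type and a change in RNA per cell cannot be told apart.

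Of the 50 members, 32 passed the count filter and 18 did not. A member was called when its p-value, from edgeR's quasi-likelihood test over 14638 genes with Benjamini-Hochberg adjustment, was under 0.05. In AIH against control, 14 members were higher and 0 lower, where 15.6% of all genes tested were higher and 6.08% lower (21.7% in either direction). In AIH against asymptomatic, 21 were higher and 0 lower, beside 19.1% of all genes higher and 10.7% lower (29.8% in either direction). The median log2 fold change of the members that passed was 1.11 against control and 1.61 against asymptomatic, beside -0.0134 and -0.0319 over all genes tested. At an unadjusted p under 0.05, Mmp19 was lower against control (34% of all genes in either direction), and Mmp15 and Mmp19 against asymptomatic (41.4% of all genes). DESeq2 called Mmp19 lower against control and Mmp15 lower against asymptomatic, and limma-voom with quality weights called both lower against asymptomatic, at adjusted p-values of 0.00585 for Mmp15 and 0.0396 for Mmp19. The AIH libraries lay above every control for 9 of the 32 members (13.2% of all genes tested) and above every asymptomatic library for 10 (12.3% of all genes). Above all 9 libraries of both groups lay 7 members that passed (9.69% of all genes), namely Adamts4, Adamts12, Lox, Loxl2, Mmp9, Timp1 and Timp2. Adamts12, Lox, Mmp7, Mmp8 and Timp1 passed the filter only with the AIH libraries included, so a difference was built into the choice of these 5. Both contrasts also use the same AIH libraries, so their calls are not independent.

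**Figure D1:**
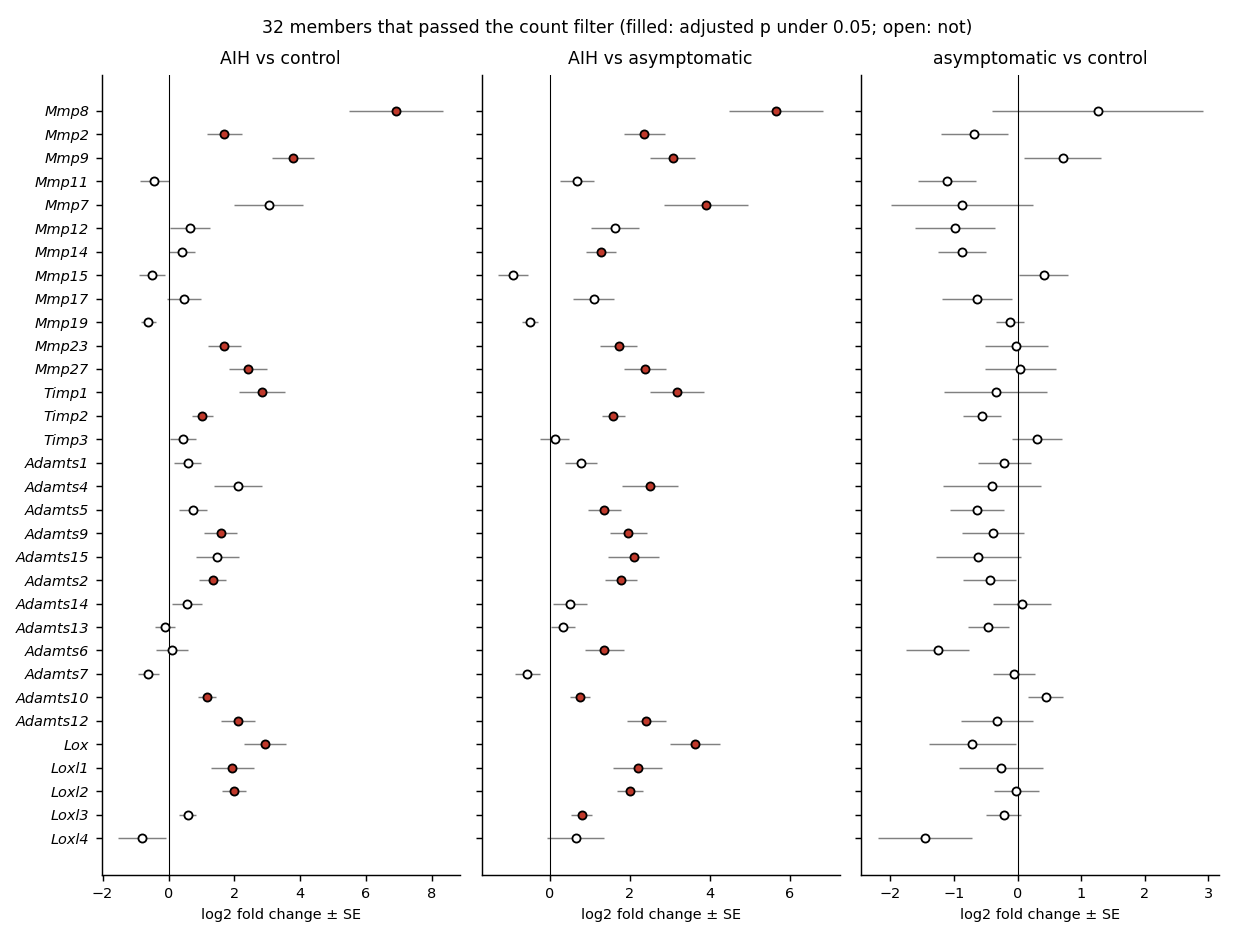
Log2 fold change ± SE (horizontal axis, a separate scale in each panel) of the 32 members that passed the count filter, grouped by role down the page, for AIH against control, AIH against asymptomatic and asymptomatic against control. Filled points passed an adjusted p of 0.05, which 14, 21 and 0 members did. Mmp8 lies farthest to the right in both AIH panels.

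Mmp8 and Mmp9, which neutrophils are known to carry, had the largest log2 fold changes against control among the members that passed the filter. Mmp8 passed only with the AIH libraries included, so part of its difference was built into that choice. Members under the filter, such as Mmp25 and Mmp3, are not in this ranking. Mmp8 (GRCm38 chromosome 9, 7558456 to 7568485, plus strand), a collagenase that cuts fibrillar collagen, was at 14, 28.8, 19.3, 0.224 and 1.41 CPM in AIH 1 to 5, against 0.065, 0, 0, 0.259 and 0.931 CPM in asymptomatic 1 to 5 and 0, 0.17, 0.163 and 0.0559 CPM in control 1 to 4. AIH 1 to 3 were high, and AIH 4 and AIH 5 were low. AIH 4 stood only just above the highest control, and below asymptomatic 4 and 5. The log2 fold change of Mmp8 was 6.92 ± 1.43 (SE; adjusted p = 0.00326) against control and 5.66 ± 1.18 (adjusted p = 0.00256) against asymptomatic. Because 7 counts in all control libraries give an unstable fit, the ratio of pooled CPM is also given, which was 131.5 (95% counting interval 63.7 to 328). Without AIH 2, the highest library, that ratio was 87.9. The limma-voom fit did not call Mmp8 against control. With sex as a term the difference from asymptomatic was 0.43 ± 2.45 (adjusted p = 0.935), so that call was lost. Without asymptomatic 5 it was 7.21.

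Mmp9 (chromosome 2, 164940780 to 164955850, plus strand), the gelatinase that degrades denatured collagen and type IV collagen, was at 8.45, 21.9, 23.7, 2.8 and 4.44 CPM in AIH 1 to 5, against 1.69, 0.588, 2.26, 1.29 and 1.4 CPM in asymptomatic 1 to 5 and 0.585, 0.735, 1.25 and 0.95 CPM in control 1 to 4. Every AIH library lay above every other library. The log2 fold change was 3.78 ± 0.64 (adjusted p = 0.000808) against control, a 13.8-fold difference, and 3.08 ± 0.56 (adjusted p = 0.000996) against asymptomatic. The order of the AIH libraries in Mmp9 was that of a list of 9 granulocyte genes (S100a8, S100a9, Ngp, Ltf, Camp, Elane, Mpo, Retnlg and Cxcr2). Their summed level was 347, 1312, 1361, 22.1 and 107 CPM in AIH 1 to 5, against 1.94 to 8.92 CPM in asymptomatic and 2.40 to 4.80 CPM in control libraries. All 9 were called higher in both AIH contrasts, with none at 0 in AIH. The granulocyte list thus moved with Mmp8 and Mmp9, and its part in their levels was not tested.

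Mmp25, a membrane-anchored protease first described in leukocytes, did not pass the filter and was not tested. It was at 0.48, 0.486, 1.4, 0.28 and 0.657 CPM in AIH 1 to 5, against 0.065, 0, 0.0627, 0 and 0 CPM in asymptomatic 1 to 5 and 0.0585, 0, 0 and 0 CPM in control 1 to 4. The AIH libraries did not overlap with the others. Pooled, 62 counts in AIH stood against 2 in asymptomatic and 1 in control libraries. The ratio was 25.4 (95% counting interval 6.74 to 214) against asymptomatic and 45.8 (7.92 to 1837) against control. Without AIH 3, its highest library, the ratios were 18.9 and 34.1.

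**Figure D2:**
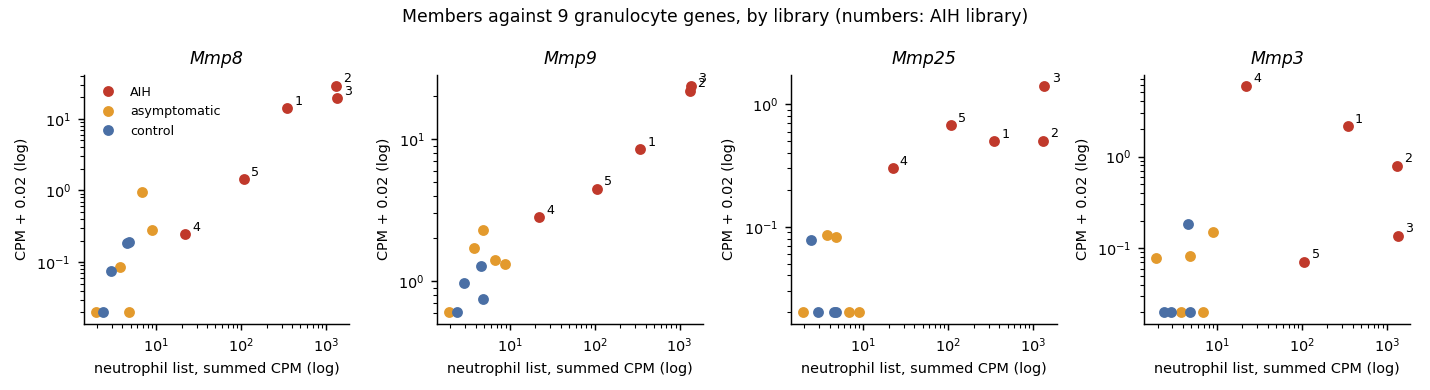
CPM + 0.02 of Mmp8, Mmp9, Mmp25 and Mmp3 (vertical axes, log scale) against the summed CPM of the 9 granulocyte genes (horizontal axis, log scale) in each of the 14 libraries, with AIH libraries in red and numbered, asymptomatic in orange and control in blue. Mmp8 and Mmp9 are highest in AIH 2 and AIH 3, where the granulocyte sum is 1312 and 1361 CPM. Mmp3 is highest in AIH 4, where the sum is 22.1 CPM.

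The other gelatinase had another order of libraries. Mmp2 (chromosome 8, 92827291 to 92853420, plus strand), which is made mainly by stromal cells, was at 12, 3.89, 19.2, 11.5 and 4.65 CPM in AIH 1 to 5, against 2.15, 4.41, 1.51, 1.16 and 0.599 CPM in asymptomatic 1 to 5 and 2.92, 2.94, 2.34 and 4.47 CPM in control 1 to 4. AIH 1, 3 and 4 were high, whereas AIH 2 and AIH 5 lay beside asymptomatic 2 and control 4. Mmp2 rose, by 1.69 ± 0.53 (adjusted p = 0.0354) against control and 2.37 ± 0.51 (adjusted p = 0.00331) against asymptomatic. The call against control was lost without AIH 3 (adjusted p = 0.0937) and also without AIH 1 or without any of control 1 to 3.

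Mmp8 lies in a cluster of 9 member genes that spans 427 kb of chromosome 9 (7272514 to 7699585). Along the chromosome these are Mmp13, Mmp12, Mmp1b, Mmp3, Mmp10, Mmp8, Mmp27, Mmp20 and Mmp7. Their levels in AIH livers differed by gene and by library, so the stretch before the start of 6 of them is shown. The 130 bases are from RefSeq (GRCm38.p6, plus strand, 5′ to 3′, up to the base before the annotated start), with matches to the AP-1 site TGANTCA and to the TATA box TATAAA in capitals.
Mmp3: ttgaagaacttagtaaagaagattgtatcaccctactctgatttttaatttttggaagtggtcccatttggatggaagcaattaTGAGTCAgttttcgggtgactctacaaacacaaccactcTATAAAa
Mmp13: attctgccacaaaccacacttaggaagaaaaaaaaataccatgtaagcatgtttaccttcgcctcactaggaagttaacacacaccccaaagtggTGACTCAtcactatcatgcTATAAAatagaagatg
Mmp7: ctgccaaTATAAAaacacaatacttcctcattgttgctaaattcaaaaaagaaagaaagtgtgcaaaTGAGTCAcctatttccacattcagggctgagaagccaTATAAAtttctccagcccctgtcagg
Mmp12: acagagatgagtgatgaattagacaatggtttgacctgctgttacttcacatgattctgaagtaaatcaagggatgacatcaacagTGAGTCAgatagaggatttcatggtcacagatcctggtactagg
Mmp8: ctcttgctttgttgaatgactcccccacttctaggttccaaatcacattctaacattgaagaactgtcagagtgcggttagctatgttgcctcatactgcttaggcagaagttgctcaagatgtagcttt
Mmp27: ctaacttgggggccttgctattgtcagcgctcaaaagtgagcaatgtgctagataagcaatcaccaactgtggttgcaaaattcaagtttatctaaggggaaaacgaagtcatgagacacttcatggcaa
Mmp3 (chr9:7445692-7445821), Mmp13 (chr9:7272384-7272513), Mmp7 (chr9:7691960-7692089) and Mmp12 (chr9:7347244-7347373) each held an AP-1 match, and Mmp8 (chr9:7558299-7558428) and Mmp27 (chr9:7571266-7571395) held none. The AP-1 match began 46 bases before the start in Mmp3, 35 in Mmp13, 63 in Mmp7 and 44 in Mmp12. Mmp12 and Mmp7 have 2 annotated starts each, and the window with the match is printed. Promoter windows were at hand for 32 of the 50 members, which are not the same 32 that passed the filter. Members without a window, among them Mmp2, Mmp9, Lox, Loxl1, Loxl2 and Loxl3, were not searched. Over the 250 bases before a start, searched on both strands, 7 of 35 windows of 32 members held TGANTCA (20%), against 6.75% of 32851 windows of all genes. These were Mmp3, Mmp7, Mmp10, Mmp12, Mmp13, Mmp1b and Mmp20, all in the cluster. TATAAA, which does not overlap the AP-1 site, was in 22.9% of the members' windows, against 12.4% of all windows. A match is a description of the letters and does not show that a factor binds.

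Among the genes with the AP-1 match, Mmp7 and Mmp3 showed wide ranges in AIH. Mmp7 (7692090 to 7699585), matrilysin, a small protease of epithelial cells, was at 3.41, 1.12, 18.1, 0.727 and 0.606 CPM in AIH 1 to 5, against 0.13, 0.941, 0.0627, 0.0646 and 0.333 CPM in asymptomatic 1 to 5 and 0.175, 0.678, 0.327 and 1.12 CPM in control 1 to 4. AIH 3 was far above the rest, and AIH 4 and AIH 5 were below control 4. Mmp7 passed the filter only with the AIH libraries included, so part of its difference was built into that choice. The log2 fold change was 3.91 ± 1.04 (adjusted p = 0.0116) against asymptomatic, which was called, and 3.04 ± 1.05 (adjusted p = 0.0526) against control, which was not. Without AIH 3 the call against asymptomatic was lost (2.2, adjusted p = 0.0507), while without asymptomatic 2 it was 4.96. The summed level of 5 cholangiocyte markers was likewise highest in AIH 3. It was 6.10, 5.30, 24.2, 12.3 and 8.18 CPM in AIH 1 to 5, against 6.84 to 12.1 CPM in asymptomatic and 5.28 to 14.2 CPM in control libraries. Below AIH 3 the orders differed, as AIH 1 was next in Mmp7 and AIH 4 was next in the markers. Of the 5 markers, 0 were called against control, and 2 (Krt7 and Cldn7) were higher against asymptomatic. The part of these markers in the level of Mmp7 was not tested.

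Mmp3, stromelysin-1, which cleaves many matrix proteins and activates other members, did not pass the filter. It was at 2.11, 0.778, 0.117, 5.88 and 0.0505 CPM in AIH 1 to 5, against 0, 0.0588, 0.0627, 0.129 and 0 CPM in asymptomatic 1 to 5 and 0, 0, 0.163 and 0 CPM in control 1 to 4. AIH 4 and AIH 1 were high, while AIH 3 and AIH 5 lay among the values of the other groups. Pooled, 168 counts in AIH stood against 4 in asymptomatic and 3 in control libraries. The ratio was 34.4 (95% counting interval 13.2 to 127.7) against asymptomatic and 41.4 (13.9 to 202.5) against control. Without AIH 4 the ratios were 15.8 and 19. Mmp13, the other collagenase of the cluster with counts, was also under the filter, at 0.461 ± 0.292 CPM in AIH, 0.255 ± 0.0943 in asymptomatic and 0.265 ± 0.147 in control livers (SD, n = 5, 5 and 4), and the groups overlapped. Mmp12, the elastase of macrophages, was at 1.34, 1.07, 5.77, 1.34 and 1.11 CPM in AIH 1 to 5, against 0.52, 1.0, 0.941, 0.646 and 0.266 CPM in asymptomatic 1 to 5 and 0.643, 0.565, 2.94 and 1.23 CPM in control 1 to 4. Its AIH libraries lay above every asymptomatic library but overlapped with controls, and neither contrast was called by edgeR (1.63 ± 0.60 (adjusted p = 0.0525) against asymptomatic, 0.65 ± 0.61 (adjusted p = 0.489) against control). Without AIH 3 the difference from control was -0.16. DESeq2 and limma-voom called Mmp12 higher against asymptomatic (adjusted p = 0.0236 and 0.0400). Part of its exons overlap those of Mmp1b on the other strand.

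Mmp27 (7571396 to 7581885), a member whose role in mouse is little known, was at 4.47, 6.71, 1.98, 1.34 and 10 CPM in AIH 1 to 5, against 0.39, 1.06, 0.878, 1.29 and 1.06 CPM in asymptomatic 1 to 5 and 0.877, 0.622, 1.58 and 0.559 CPM in control 1 to 4. AIH 5 and AIH 2 were highest, and AIH 4 lay below control 3. It rose by 2.42 ± 0.57 (adjusted p = 0.00706) against control and 2.38 ± 0.52 (adjusted p = 0.00361) against asymptomatic. A list of 5 Kupffer cell markers (Marco, Timd4, Cd5l, Clec4f and Vsig4), all called higher in both AIH contrasts, was likewise highest in AIH 2 and AIH 5 and lowest of the group in AIH 4. Its sum was 1427, 3274, 1156, 686 and 2445 CPM in AIH 1 to 5, against 376 to 507 CPM in asymptomatic and 297 to 630 CPM in control libraries, with none of the 5 at 0 in a group. The pattern was not particular to Kupffer cell markers. The sum of 7 monocyte and macrophage markers was also highest in AIH 2 (2266 CPM) and AIH 5 (1402 CPM) and lowest of the group in AIH 4 (994 CPM). The part of either list in the level of Mmp27 was not tested. Neither Mmp8 nor Mmp27, which both rose in AIH, had the AP-1 letters in its window. Mmp10 and Mmp1b had 0 counts in all libraries and Mmp20 had 1.

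**Figure D3:**
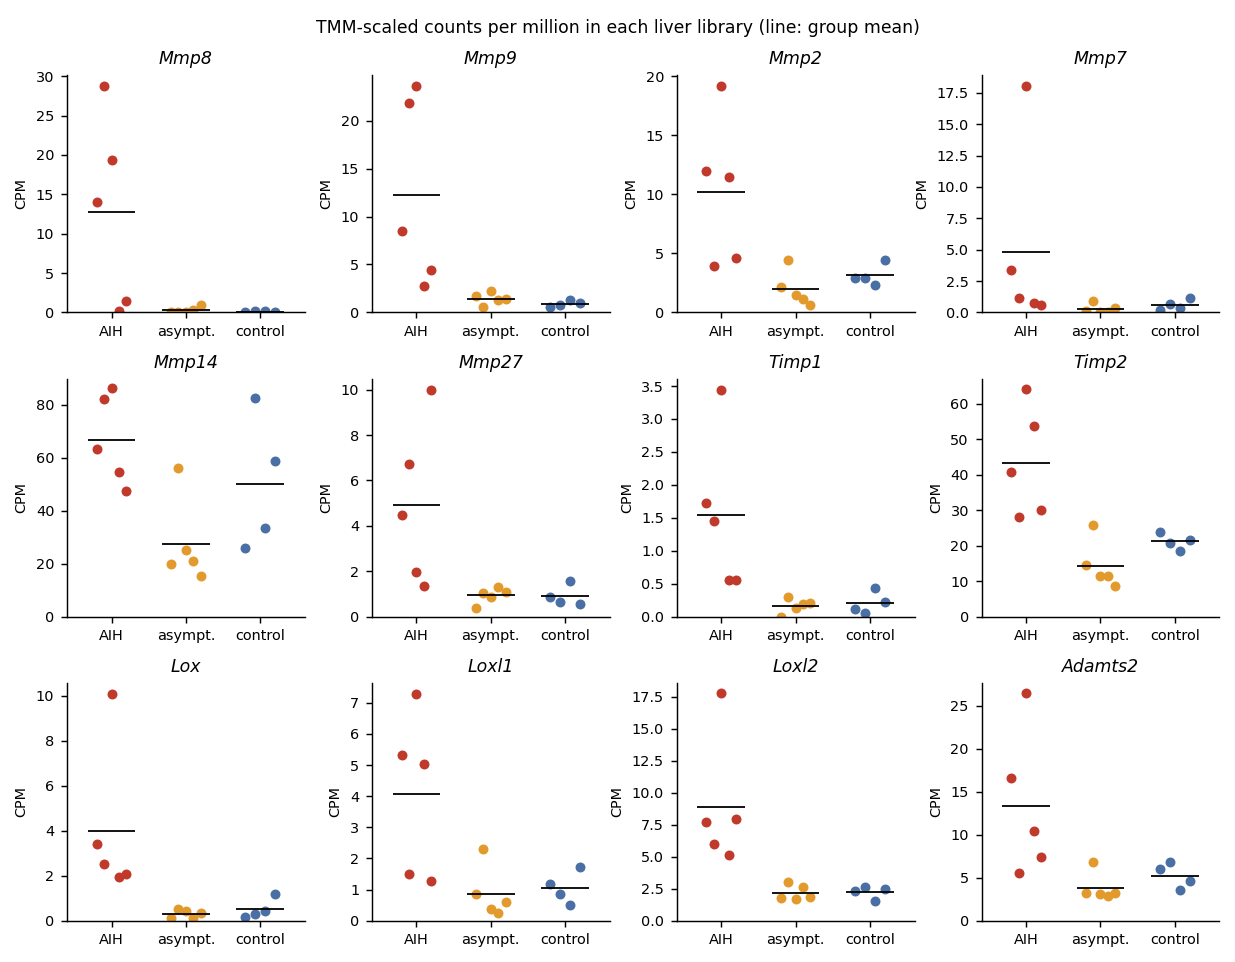
TMM-scaled CPM (vertical axes, linear, one scale per gene) of 12 members in each library, with AIH (red), asymptomatic (orange) and control (blue) from left to right, the libraries of a group in order of their number, and a line at the group mean. Every AIH library of Mmp9, Timp1, Timp2, Lox and Loxl2 lies above all 9 other libraries, and Mmp14 overlaps between AIH and control.

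Of the membrane-type proteases, which act at the cell surface, 3 passed the filter. Mmp14 (chromosome 14, 54431612 to 54445364, plus strand), an activator of pro-Mmp2, was at 63.2, 82.3, 86.3, 54.6 and 47.4 CPM in AIH 1 to 5, against 19.8, 56.2, 25.1, 21.1 and 15.5 CPM in asymptomatic 1 to 5 and 25.9, 82.5, 33.6 and 58.9 CPM in control 1 to 4. AIH libraries overlapped with both groups, through asymptomatic 2 and through control 2 and 4. Mmp14 rose against asymptomatic (1.28 ± 0.37 (adjusted p = 0.0175)), and its difference from control was 0.41 ± 0.39 (adjusted p = 0.491). Mmp15 was at 27.9 ± 20.8 CPM in AIH, 52.6 ± 14 in asymptomatic and 39.6 ± 14.1 in control livers (SD, n = 5, 5 and 4), and Mmp17 at 1.29 ± 0.779 CPM in AIH, 0.595 ± 0.448 in asymptomatic and 0.932 ± 0.165 in control livers (SD, n = 5, 5 and 4). Neither was called in any contrast by edgeR. For Mmp15 the log2 fold change against asymptomatic was -0.92 ± 0.37 (adjusted p = 0.0735). DESeq2 and limma-voom called it lower in that contrast (adjusted p = 0.0363 and 0.00585), and with sex as a term the difference was -0.14 (adjusted p = 0.81). AIH 4, the male, held 64.4 CPM of Mmp15 and the other AIH libraries 14.4 to 24.5 CPM.

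Per length, Mmp19 was the most abundant member in each group, at 17.4 ± 4.3 CPM per kb of exon in AIH, 24.6 ± 3.38 in asymptomatic and 26.6 ± 9.44 in control livers (SD, n = 5, 5 and 4). It encodes a protease found in many resting tissues. It was at 62, 52.6, 50.6, 54.9 and 87.6 CPM in AIH 1 to 5, against 97.7, 69.8, 87, 98.2 and 81 CPM in asymptomatic 1 to 5 and 65.8, 99.4, 139 and 72.1 CPM in control 1 to 4. The groups overlapped, and the log2 fold change was -0.61 ± 0.22 (adjusted p = 0.0649) against control and -0.49 ± 0.21 (adjusted p = 0.0922) against asymptomatic. With sex as a term it was called lower in both, at -0.72 (adjusted p = 0.0227) and -0.91 (adjusted p = 0.0338). Exons of Tmem198b and Gm47093 overlap it on the other strand. In AIH, Mmp14 (11.2 ± 2.86 CPM per kb), Timp2 (11.2 ± 3.98) and Timp3 (9.5 ± 6.2) came next, within their spread of each other. Mmp8 (5.26 ± 5.0 CPM per kb), Mmp15 (5.16 ± 3.85) and Mmp7 (4.48 ± 7.03) followed in AIH, again within their spread of each other. Mmp8 was at 0.104 ± 0.163 CPM per kb in asymptomatic and 0.0401 ± 0.0343 in control livers. In controls the order after Mmp19 was Mmp14 at 8.43 ± 4.32, Mmp15 at 7.34 ± 2.62, Timp3 at 7.0 ± 1.3 and Timp2 at 5.44 ± 0.584 CPM per kb, whose neighbours lie within their spread.

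Mmp23 (chromosome 4, 155650655 to 155653384, minus strand), a short membrane-anchored protease, was at 2.69, 1.65, 4.2, 2.97 and 1.06 CPM in AIH 1 to 5, against 0.845, 1.18, 0.816, 0.711 and 0.20 CPM in asymptomatic 1 to 5 and 1.29, 0.452, 0.49 and 0.838 CPM in control 1 to 4. AIH 1 to 4 lay above all other libraries, and AIH 5 did not. It rose by 1.7 ± 0.49 (adjusted p = 0.0226) against control and 1.73 ± 0.46 (adjusted p = 0.0113) against asymptomatic. The call against control held in 5 of 9 fits that leave out 1 library, and was lost without AIH 3 (adjusted p = 0.0535) and without any of control 2 to 4. Mmp11, stromelysin-3, was at 0.888 ± 0.342 CPM in AIH, 0.546 ± 0.344 in asymptomatic and 1.2 ± 0.385 in control livers (SD, n = 5, 5 and 4) and was not called in either.

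Of the inhibitors, Timp1 and Timp2 rose and Timp3 was not called. Timp1 (chromosome X, 20870166 to 20874735, plus strand), the inducible inhibitor, was at 1.73, 1.46, 3.44, 0.56 and 0.556 CPM in AIH 1 to 5, against 0, 0.294, 0.125, 0.194 and 0.20 CPM in asymptomatic 1 to 5 and 0.117, 0.0565, 0.436 and 0.223 CPM in control 1 to 4. The AIH libraries lay above all others. Because Timp1 passed the filter only with the AIH libraries included, part of its difference was built into that choice. Its log2 fold change was 2.84 ± 0.71 (adjusted p = 0.0102) against control, a 7.15-fold difference, and 3.18 ± 0.68 (adjusted p = 0.00302) against asymptomatic. Without control 3 it was 3.47 against control. Its level was low throughout, with 146 counts in the 5 AIH libraries together, 13 in asymptomatic and 15 in control libraries.

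Timp2 (chromosome 11, 118301069 to 118355740, minus strand), which also helps Mmp14 to activate pro-Mmp2, was at 40.7, 28.2, 64.3, 53.9 and 30.1 CPM in AIH 1 to 5, against 14.7, 25.9, 11.4, 11.6 and 8.52 CPM in asymptomatic 1 to 5 and 24, 20.7, 18.5 and 21.6 CPM in control 1 to 4. It too was above all other libraries in AIH, with AIH 2 closest to asymptomatic 2. It rose by 1.03 ± 0.31 (adjusted p = 0.0263) against control and 1.59 ± 0.29 (adjusted p = 0.00105) against asymptomatic. The call against control was lost without AIH 3 (adjusted p = 0.0671) and without any of control 2 to 4. Timp3, which is bound to the matrix, was at 48.8, 37.2, 164, 77.7 and 59.6 CPM in AIH 1 to 5, against 57.7, 70.5, 33.3, 102 and 90.9 CPM in asymptomatic 1 to 5 and 71.3, 57.2, 46.2 and 53.3 CPM in control 1 to 4. The groups overlapped, with AIH 3 highest, and its log2 fold change was 0.44 ± 0.39 (adjusted p = 0.46) against control and 0.13 ± 0.36 (adjusted p = 0.819) against asymptomatic, and -0.03 and -0.35 without AIH 3. Timp3 lies within an intron of Syn3, and exons of the pair overlap in the annotation. Timp4 had 4 counts in all.

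All 5 lysyl oxidases passed the filter, with 3 higher in AIH against control and 4 against asymptomatic. Lox (chromosome 18, 52516067 to 52529867, minus strand), the founding enzyme of the family, was at 3.41, 2.53, 10.1, 1.96 and 2.07 CPM in AIH 1 to 5, against 0.13, 0.529, 0.439, 0.129 and 0.333 CPM in asymptomatic 1 to 5 and 0.175, 0.283, 0.436 and 1.17 CPM in control 1 to 4. Each AIH library lay above all others, and AIH 3 far above the rest. Lox passed the filter only with the AIH libraries included, so part of its difference was built into that choice. The log2 fold change was 2.93 ± 0.65 (adjusted p = 0.00504) against control, a 7.63-fold difference, and 3.64 ± 0.63 (adjusted p = 0.000718) against asymptomatic. Without AIH 3 it was 2.25 and 2.95, still called, and without control 4 it was 3.69 against control. Loxl2 (chromosome 14, 69609068 to 69695834, plus strand), which crosslinks collagen including type IV, was at 7.68, 5.98, 17.8, 5.15 and 7.98 CPM in AIH 1 to 5, against 1.76, 3.06, 1.69, 2.65 and 1.86 CPM in asymptomatic 1 to 5 and 2.34, 2.66, 1.53 and 2.46 CPM in control 1 to 4. It likewise did not overlap, and rose by 1.99 ± 0.36 (adjusted p = 0.00137) against control and 2.01 ± 0.33 (adjusted p = 0.000516) against asymptomatic.

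Loxl1 (chromosome 9, 58287738 to 58313186, minus strand), needed for elastic fibres, was at 5.33, 1.51, 7.28, 5.04 and 1.26 CPM in AIH 1 to 5, against 0.845, 2.29, 0.376, 0.259 and 0.599 CPM in asymptomatic 1 to 5 and 1.17, 0.848, 0.49 and 1.73 CPM in control 1 to 4. AIH 1, 3 and 4 were high, and AIH 2 and AIH 5 overlapped with control 4 and asymptomatic 2. The same 2 AIH libraries were the low ones in Mmp2. Loxl1 rose by 1.94 ± 0.65 (adjusted p = 0.046) against control and 2.2 ± 0.61 (adjusted p = 0.0149) against asymptomatic, the second 2.96 without asymptomatic 2. The call against control held in 2 of 9 fits that leave out 1 library. Loxl3 was at 2.97 ± 0.676 CPM in AIH, 1.71 ± 0.566 in asymptomatic and 1.99 ± 0.291 in control livers (SD, n = 5, 5 and 4) and rose against asymptomatic (0.80 ± 0.26 (adjusted p = 0.0297)), a call that held in 5 of 10 fits that leave out 1 library. Against control its log2 fold change was 0.58 ± 0.27 (adjusted p = 0.145). Its exons overlap with Htra2. Loxl4 was called in neither, at 1.68, 1.07, 2.8, 3.58 and 3.13 CPM in AIH 1 to 5, against 0.78, 3.59, 0.69, 1.36 and 1.33 CPM in asymptomatic 1 to 5 and 0.818, 12.7, 0.763 and 2.96 CPM in control 1 to 4, with control 2 above every other library.

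Among the ADAMTS proteases, 12 of 19 passed the filter, and 4 were higher against control and 8 against asymptomatic. In the proteoglycanase group, Adamts4 (chromosome 1, 171250421 to 171260637, plus strand), an aggrecanase, was at 1.78, 1.36, 5.19, 1.18 and 2.53 CPM in AIH 1 to 5, against 0, 0.941, 0.188, 0.775 and 0.133 CPM in asymptomatic 1 to 5 and 0.175, 0.735, 0.436 and 0.838 CPM in control 1 to 4. All AIH libraries lay above the others. It rose against asymptomatic (2.52 ± 0.70 (adjusted p = 0.0141)) and stood at the threshold without passing it against control (2.12 ± 0.73 (adjusted p = 0.050001)). Its counts are uncertain where annotated exons overlap on the other strand. Adamts9 (chromosome 6, 92772699 to 92943492, minus strand), which cleaves versican, was at 3.79, 2.72, 16.1, 4.92 and 4.04 CPM in AIH 1 to 5, against 0.78, 2.41, 1.19, 1.68 and 1.93 CPM in asymptomatic 1 to 5 and 2.75, 2.26, 1.96 and 1.45 CPM in control 1 to 4. AIH 3 was far above the rest and AIH 2 overlapped with control 1. It rose by 1.58 ± 0.49 (adjusted p = 0.033) against control and 1.97 ± 0.47 (adjusted p = 0.00578) against asymptomatic. The call against control held in 4 of 9 fits that leave out 1 library, and without AIH 3 the log2 fold change was 0.88 against control and 1.26 against asymptomatic.

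Adamts15 and Adamts5, which both cut large proteoglycans, were called against asymptomatic and not against control. Adamts15 was at 4.03, 2.67, 14.3, 1.73 and 1.72 CPM in AIH 1 to 5, against 0.52, 1.76, 0.565, 1.42 and 1.4 CPM in asymptomatic 1 to 5 and 0.877, 2.66, 0.763 and 2.68 CPM in control 1 to 4. AIH 3 stood apart, and AIH 4 and AIH 5 overlapped with both other groups. Its log2 fold change was 2.1 ± 0.63 (adjusted p = 0.0226) against asymptomatic and 1.48 ± 0.66 (adjusted p = 0.128) against control. Without AIH 3 the call was lost, at 1.15 (adjusted p = 0.0982), as it was without asymptomatic 1 (adjusted p = 0.0578). Adamts5 was at 3.99, 1.56, 7.4, 7.44 and 4.14 CPM in AIH 1 to 5, against 2.02, 2.59, 2.01, 1.68 and 1.13 CPM in asymptomatic 1 to 5 and 4.68, 2.43, 1.47 and 3.18 CPM in control 1 to 4. AIH 2 lay among the asymptomatic values, and AIH 3 and AIH 4 were highest. Its log2 fold change was 1.37 ± 0.41 (adjusted p = 0.0206) against asymptomatic and 0.74 ± 0.42 (adjusted p = 0.243) against control, with the call lost without AIH 3 (adjusted p = 0.0537) or asymptomatic 5 (adjusted p = 0.0534). Adamts1 was at 23.2 ± 19.3 CPM in AIH, 13.4 ± 4.67 in asymptomatic and 15.5 ± 1.06 in control livers (SD, n = 5, 5 and 4) and was not called, with 57.2 CPM in AIH 3 and 10.7 to 19.7 CPM in the other AIH libraries.

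Of the procollagen N-proteinases, which remove the amino-terminal propeptide of fibrillar procollagens, Adamts2 (chromosome 11, 50602084 to 50807573, plus strand) was at 16.6, 5.59, 26.5, 10.5 and 7.42 CPM in AIH 1 to 5, against 3.25, 6.88, 3.14, 2.84 and 3.19 CPM in asymptomatic 1 to 5 and 5.96, 6.84, 3.6 and 4.58 CPM in control 1 to 4. AIH 1, 3, 4 and 5 lay above all others, AIH 5 by little, and AIH 2 did not. It rose by 1.34 ± 0.42 (adjusted p = 0.0346) against control and 1.78 ± 0.40 (adjusted p = 0.0042) against asymptomatic. The call against control held in 4 of 9 fits that leave out 1 library. Adamts14 was at 1.55 ± 0.478 CPM in AIH, 1.09 ± 0.524 in asymptomatic and 1.04 ± 0.444 in control livers (SD, n = 5, 5 and 4) and was not called. Adamts3 was under the filter, with 28 counts in AIH, 16 in asymptomatic and 14 in control libraries. Adamts13, the von Willebrand factor protease that hepatic stellate cells make, was at 3.93 ± 0.964 CPM in AIH, 3.1 ± 1.03 in asymptomatic and 4.26 ± 1.76 in control livers (SD, n = 5, 5 and 4), with -0.11 ± 0.31 (adjusted p = 0.836) against control and 0.34 ± 0.30 (adjusted p = 0.412) against asymptomatic.

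Of the remaining ADAMTS genes, Adamts12 (chromosome 15, 11064790 to 11349231, plus strand), which degrades cartilage oligomeric matrix protein, was at 1.15, 0.389, 1.86, 0.56 and 1.62 CPM in AIH 1 to 5, against 0.195, 0.353, 0.0627, 0.194 and 0.20 CPM in asymptomatic 1 to 5 and 0.292, 0.17, 0.272 and 0.279 CPM in control 1 to 4. Its AIH libraries lay above all others, AIH 2 by little. Adamts12 passed the filter only with these libraries included, so part of its difference was built into that choice. It rose by 2.11 ± 0.51 (adjusted p = 0.00889) against control and 2.42 ± 0.49 (adjusted p = 0.00221) against asymptomatic. Adamts10 (chromosome 17, 33524204 to 33553782, plus strand), which binds fibrillin microfibrils, was at 5.14, 4.71, 4.31, 2.85 and 5.5 CPM in AIH 1 to 5, against 3.64, 2.47, 2.2, 2.39 and 2.73 CPM in asymptomatic 1 to 5 and 2.1, 1.36, 2.83 and 1.62 CPM in control 1 to 4. It was above every control in AIH, while AIH 4 overlapped with asymptomatic 1. It rose by 1.18 ± 0.27 (adjusted p = 0.00644) against control and 0.75 ± 0.25 (adjusted p = 0.0363) against asymptomatic. The call against asymptomatic held in 2 of 10 fits that leave out 1 library (log2 fold change at least 0.66), and with sex as a term the difference was 0.37 (adjusted p = 0.557). Adamts6 was at 1.49 ± 0.674 CPM in AIH, 0.569 ± 0.428 in asymptomatic and 1.38 ± 0.556 in control livers (SD, n = 5, 5 and 4) and was called against asymptomatic (1.37 ± 0.48 (adjusted p = 0.044)) but not against control (0.11 ± 0.48 (adjusted p = 0.903)). The call held in 5 of 10 fits that leave out 1 library and was lost without AIH 3 or 5 and without asymptomatic 1, 4 or 5. Adamts7 was at 3.5 ± 1.41 CPM in AIH, 5.17 ± 1.71 in asymptomatic and 5.36 ± 1.25 in control livers (SD, n = 5, 5 and 4) and was not called, with -0.61 ± 0.33 (adjusted p = 0.202) against control.

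Of the 18 members under the filter, 14 had at least 1 count. Adamts18, Adamts19, Mmp10 and Mmp1b had none, and 3 counts over a group, the floor used here, correspond to 0.0312 CPM in AIH, 0.0381 in asymptomatic and 0.0422 in control libraries. Mmp3 and Mmp25 are given above. Adamts8, a proteoglycanase, had 20 counts in AIH, 1 in asymptomatic and 0 in control libraries. Of the 20, AIH 4 held 13, and AIH 2 and AIH 5 held 0. Its pooled ratio was 16.4 (95% counting interval 2.62 to 679) against asymptomatic, and 7.04 without AIH 4. Adamts16 and Mmp24, a membrane-type protease, each had 12 counts in AIH, 4 in asymptomatic and 6 in control libraries. Adamts17 had 6 counts in AIH, 3 in asymptomatic and 2 in control libraries. Mmp16, another membrane-type protease, had 3, 1 and 3, Mmp21 had 2, 0 and 1, and Adamts20 had 1, 0 and 0 in AIH, asymptomatic and control libraries. At these counts no difference could be resolved for these 6. Mmp28 had 42, 33 and 32 counts in AIH, asymptomatic and control libraries, with overlapping groups. Counting intervals and floors cover counting error only.

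No member was called in asymptomatic against control by edgeR's quasi-likelihood test, in which 0% of all genes were called. The median log2 fold change of the members that passed the filter was -0.37, beside -0.000364 over all genes tested. At an unadjusted p under 0.05 there were 3 of 32 members, beside 10.5% of all genes. These were Adamts6 (-1.26 ± 0.50 (adjusted p = 0.435)), Mmp11 (-1.11 ± 0.45 (adjusted p = 0.435)) and Mmp14 (-0.87 ± 0.38 (adjusted p = 0.455)), all lower in asymptomatic livers. DESeq2 called 0 members and 0.745% of all genes. For 0 of the 32 did every asymptomatic library lie above every control, as they did for 1.27% of all genes. The limma-voom fit with quality weights called 4 members lower, at adjusted p-values of 0.0265 for Adamts6, 0.0310 for Mmp11, 0.0310 for Mmp14 and 0.0442 for Timp2, beside 8.87% of all genes in either direction and 4.71% lower. For these genes the asymptomatic mean lies below both the AIH and the control mean, as in Mmp14 at 66.7 ± 17 CPM in AIH, 27.5 ± 16.4 in asymptomatic and 50.2 ± 25.7 in control livers (SD, n = 5, 5 and 4). The difference between the 2 AIH contrasts is this contrast, so the larger number of members called against asymptomatic is not shown to be a difference between the contrasts.

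The AIH libraries differed from each other in these genes. AIH 3 was the highest AIH library for 20 of the 32 members that passed the filter, where it was the highest for 22.1% of all genes tested. AIH 5 was highest for 7, AIH 4 for 4, AIH 2 for 1 and AIH 1 for 0. Of the 21 members called in at least 1 AIH contrast, AIH 3 was highest for 15, whereas among all genes called higher it was highest for 27.9%. With AIH 3 left out, 7 members were higher against control (13.2% of all genes) and 15 against asymptomatic (16.4% of all genes), beside 14 (15.6%) and 21 (19.1%) with it. AIH 3 also held the highest level of a list of 5 markers of lipid-associated macrophages, at 1103 CPM, where the other AIH libraries were at 188 to 244 CPM, asymptomatic libraries at 67.6 to 226 CPM and controls at 74.7 to 112 CPM. Its summed level of 9 stellate cell and fibroblast markers was 866 CPM, and 472 to 659 CPM in the other AIH, 227 to 488 CPM in asymptomatic and 290 to 466 CPM in control libraries. Of those 9, Lum, Des and Tagln were higher in AIH against control. The summed endothelial, granulocyte, cholangiocyte and hepatocyte markers were also highest in AIH 3. AIH 3 was not the highest AIH library for the monocyte and macrophage, Kupffer cell, T cell, B and plasma cell and dividing cell lists. All 7 monocyte and macrophage markers were higher in both AIH contrasts, with a sum of 994 to 2266 CPM in AIH, 263 to 340 CPM in asymptomatic and 233 to 461 CPM in control libraries. All 5 T cell markers were higher, at 7.32 to 59.0 CPM in AIH, 2.46 to 4.12 CPM in asymptomatic and 2.71 to 3.81 CPM in control libraries, as were all 5 of B and plasma cells, at 27.3 to 628 CPM, 2.26 to 47.4 CPM and 5.79 to 13 CPM in the same groups. The 4 of dividing cells were higher too, at 76.2 to 135 CPM in AIH, 4.55 to 10.5 CPM in asymptomatic and 5.14 to 9.42 CPM in control libraries. Of 6 endothelial markers, 3 were higher in each contrast, with a sum of 277 to 489 CPM in AIH, 214 to 269 CPM in asymptomatic and 213 to 269 CPM in control libraries. The part of these lists in the members' levels was not tested. The male AIH 4 had the smallest rise of Mmp8 and Mmp9 and the largest value of Mmp3 and Mmp15 in the group.

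**Figure D4:**
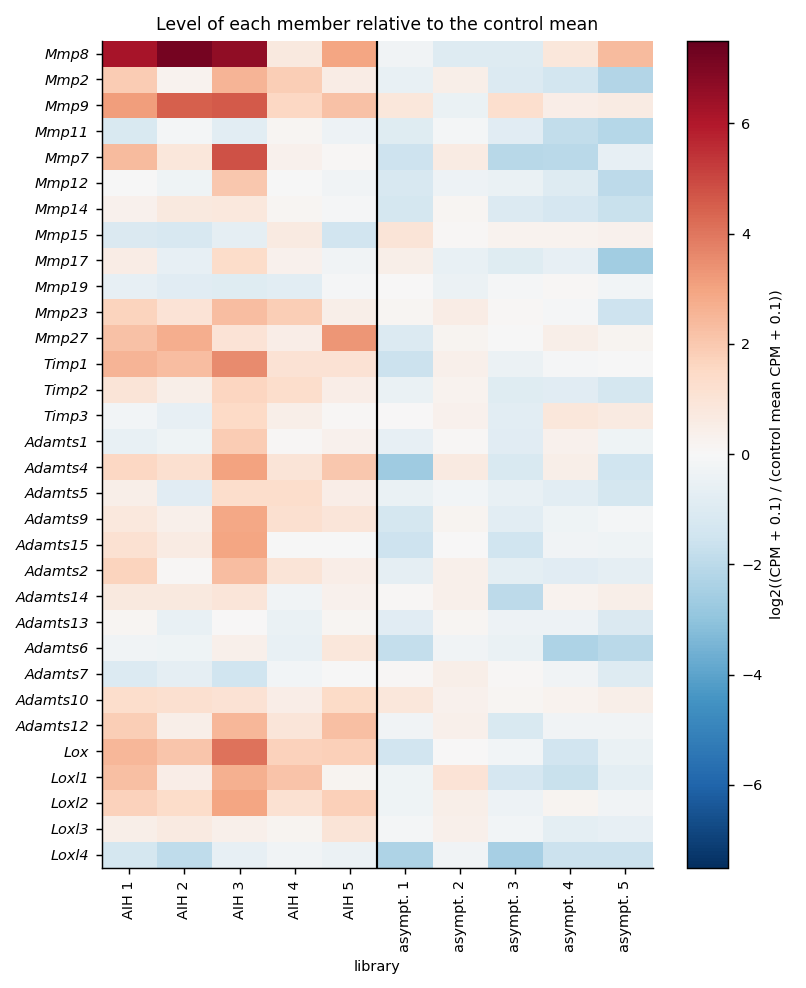
Colour shows log2 of (CPM + 0.1) over (control mean CPM + 0.1) for the 32 members that passed the filter (down the page, by role) in the 5 AIH and 5 asymptomatic libraries (across, separated by a line), with red above and blue below the control mean. AIH 3 is the darkest red column for most members, with Mmp8 as an exception, where AIH 2 at 28.8 CPM is highest.

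The number of members called was lower with sex in the fit. With sex as a term, 12 members were higher in AIH against control (12.9% of all genes) and 1 lower, with Adamts2 and Adamts9 no longer called. Against asymptomatic, 7 were higher (8.35% of all genes) and 1 lower. The 7 were Adamts5, Lox, Loxl1, Loxl2, Mmp2, Mmp23 and Timp2, and the lower one was Mmp19. The 14 members called without that term and not with it had log2 fold changes of 0.37 (Adamts10) to 2.93 (Mmp7) in that fit, with Mmp9 at 1.86, Timp1 at 2.16 and Mmp27 at 1.21. Within females, AIH against control gave 8 higher (9.42% of all genes) and 1 lower. Within males, where AIH has 1 library and the spread comes from the other groups and the females, AIH against control gave 0 calls by edgeR (1 member at an unadjusted p under 0.05; 3.02% of all genes higher), and AIH against asymptomatic gave 1, Timp2, at 1.90 (adjusted p = 0.0223; 5.36% of all genes higher). The difference of the AIH effect between females and males was called in 0 of 14638 genes (404, or 2.76%, at an unadjusted p under 0.05), a test that rests on 1 male with AIH. With the share of unaligned reads as a term, 13 members were higher against control (14.3% of all genes), and edgeR called 0 members against asymptomatic (7 at an unadjusted p under 0.05), beside 3.72% of all genes higher.

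Genes that act with the members were taken from 7 lists, whose counts stand beside 15.6% of all genes higher and 6.08% lower against control, and 19.1% higher and 10.7% lower against asymptomatic. Of 18 matrix substrates tested, 16 were higher in AIH against control and 17 against asymptomatic, with medians of 1.68 and 2.02 on the log2 scale. Sparc, a collagen-binding protein, rose by 1.49 ± 0.16 (SE; adjusted p = 2.84e-05), Col5a2 by 2.75 ± 0.36 (adjusted p = 0.00011) and Col3a1 by 2.97 ± 0.42 (adjusted p = 0.000222) against control. Fn1, fibronectin, averaged 1663 ± 348 CPM in AIH, 1809 ± 501 in asymptomatic and 1929 ± 588 in control livers (SD, n = 5, 5 and 4) and was not called. Of 10 tested genes on the list of procollagen processing and hydroxylation, 5 were higher in each AIH contrast, the transglutaminase Tgm2 among them. The medians were 1.07 against control and 0.84 against asymptomatic. Pcolce, the enhancer of the procollagen C-proteinase, rose by 1.97 ± 0.30 (adjusted p = 0.000409), Serpinh1, the collagen chaperone, by 1.75 ± 0.38 (adjusted p = 0.00433) and Plod2, a collagen lysyl hydroxylase, by 1.95 ± 0.47 (adjusted p = 0.0085) against control.

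In the plasminogen system, which activates several metalloproteinases, 3 of 7 tested genes were higher against control and 4 against asymptomatic, with medians of 0.90 and 1.93. Plaur, the urokinase receptor, rose by 3.35 ± 0.74 (adjusted p = 0.00482) and Plat, tissue plasminogen activator, by 1.2 ± 0.39 (adjusted p = 0.04) against control. Of 9 other regulators, 2 were higher and 1 lower in each AIH contrast, with medians of -0.27 against control and -0.13 against asymptomatic, which is near the 21.7% and 29.8% of all genes called in either direction. Lcn2, which forms a complex with Mmp9 protein and is itself a neutrophil granule and hepatocyte product, rose by 4.65 ± 1.27 (adjusted p = 0.0173) against control. Its level was 642, 732, 949, 8.17 and 291 CPM in AIH 1 to 5. It was 2.73 to 59.3 CPM in asymptomatic and 1.64 to 41.2 CPM in control libraries, so AIH 4 lay among the values of both. A2m rose by 4.78 ± 1.34 (adjusted p = 0.0203), and Pcsk6, a proprotein convertase, fell by 0.88 ± 0.16 (adjusted p = 0.00143) against control. Against asymptomatic, A2m was not among the genes called (1.02 ± 0.93, adjusted p = 0.434). A2m was at 0.152 to 6.32 CPM in AIH, 0 to 3.66 CPM in asymptomatic and 0 to 0.17 CPM in control libraries. Its lowest AIH library, AIH 5, lay among the controls.

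Of 8 tested ADAM genes, relatives of the ADAMTS genes, 6 were higher against control, and 7 higher and 1 lower against asymptomatic. The medians were 1.71 and 1.80. Adam15 rose by 1.63 ± 0.21 (adjusted p = 0.000105), Adamdec1 by 3.59 ± 0.51 (adjusted p = 0.000226) and Adam19 by 2.28 ± 0.44 (adjusted p = 0.00219) against control. The ADAMTS-like proteins, which have no protease domain, gave 0 of 7 against control by edgeR, DESeq2 and limma-voom (0 at an unadjusted p under 0.05 by edgeR), and 3 of 7 higher against asymptomatic, with medians of 0.10 and 0.79. Of 12 tested AP-1 factors and inducing cytokines, 8 were higher against control and 11 against asymptomatic, with a median of 1.6 in each. Tgfb1 rose by 1.44 ± 0.24 (adjusted p = 0.000722), Fos by 2.36 ± 0.49 (adjusted p = 0.00332) and Tnf by 2.41 ± 0.58 (adjusted p = 0.00861) against control. In asymptomatic against control, edgeR and DESeq2 called 0 of the 71 tested genes of these 7 lists (7 at an unadjusted p under 0.05 by edgeR), and limma-voom called 7.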

How the data were processed

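Each library has 1 deposited file of whole-number read counts by Ensembl gene ID, left as raw numbers. HISAT2 2.1.0, HTSeq 0.9.0, R 4.0, edgeR, cutadapt 1.12 and FastQC 0.11.5 are listed without roles per the submitters' processing notes, which name GRCh38 and GRCm38 as builds. The IDs are mouse. Strand setting and annotation release are not given in the sources used here, so reads shared by genes on opposite strands cannot be assigned to either. Each file had 51912 gene IDs, of which 51719 matched the GENCODE M21 annotation of GRCm38, and 5 HTSeq summary lines, which were left out of library sizes and tests. As shares of all reads in a file, these were 3.23% to 9.27% not aligned, 28.8% to 37.0% not aligned uniquely, 1.38% to 3.05% ambiguous and 2.29% to 3.29% with no feature.

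Genes were filtered with filterByExpr (14638 kept), scaled by TMM, and tested with the two-sided quasi-likelihood F-test of edgeR 4.0.16 in R 4.3.3, fitted once to all 14 libraries and 3 group means. The Benjamini-Hochberg adjustment covered all genes tested, and the threshold was 0.05. Standard errors were derived from the F statistic. Pooled ratios have exact 95% intervals, and CPM per kb use the summed exon length. Members are given by role, those under the filter by their counts. Members called are named with values, and up to 3 genes of each pathway list with the smallest p in AIH against control, except 1 that is not reported here. The members and lists were chosen with earlier results of these data known.

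Alternatives were RLE factors, library totals, no filter, a filter of 1 CPM in 4 libraries, DESeq2 1.42.0, limma 3.58.1 (voom with quality weights), a fit of the compared groups alone, sex as a term (read from Xist and 4 Y-linked genes), contrasts within females or within males, and each library left out. AIH contrasts within males, the female minus male difference and the share of unaligned reads were added after seeing the data. Contrasts within males come from a fit of group-by-sex means over all libraries, so the lone male with AIH is assumed to vary like the rest. On simulated counts, AIH against control (13863 genes) recovered 29 of 100 genes changed 2-fold and 89 of 100 changed 4-fold, with 6 of 13663 unchanged genes called. AIH against asymptomatic (13842 genes) recovered 55 and 93 of 100, and asymptomatic against control 35 and 90 of 100. Changed genes were drawn only from those with a control mean above 1 CPM. The rates therefore do not cover members below that level, such as Mmp8, Lox and Timp1. Promoter sequences are RefSeq's on GRCm38.p6. Figures used matplotlib 3.10.9.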

Additional observations from a re-analysis of the deposited data

Results flagged for a closer look

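In 17 cases the highest or lowest library of a group of 4 or 5 lay far from the next one, by Dixon's test of the gap over the range. The test would flag about 1 in 20 groups by chance if values were independent and normally distributed, and 96 groups were looked at (32 members in 3 groups). The CPM were not transformed and all groups reuse the same 14 libraries. The number of flags to be had by chance is therefore not known. No cause was tested for any of them.

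AIH 3 was the highest AIH library by such a gap in 7 members. Adamts1 had 57.2 CPM there, where the next AIH library had 19.7 CPM. Adamts9 had 16.1 CPM, next 4.92 CPM. Adamts15 had 14.3 CPM, next 4.03 CPM. Loxl2 had 17.8 CPM, next 7.98 CPM. Lox had 10.1 CPM, next 3.41 CPM. Mmp7 had 18.1 CPM, next 3.41 CPM. Mmp12 had 5.77 CPM, next 1.34 CPM. These members are proteoglycanases, lysyl oxidases, matrilysin and the macrophage elastase. In the same library the summed level of the list of 13 genes of procollagen processing and hydroxylation was 2882 CPM. Most of it was Tgm2, at 2547 CPM, which encodes a transglutaminase and neither processes procollagen nor hydroxylates it. The sum of the whole list was 450 to 839 CPM in the other AIH, 326 to 542 CPM in asymptomatic and 357 to 446 CPM in control libraries. The high sum in AIH 3 thus stands for Tgm2 and not for the list. The relation of Tgm2 to these members was not tested.

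Asymptomatic 2 stood above its group in 4 members, which are proteases and lysyl oxidases. The summed level of 9 stellate cell and fibroblast markers was 488 CPM in that library and 227 to 248 CPM in the other asymptomatic libraries. Its reads also aligned otherwise. The share of unaligned reads was 4.93% in asymptomatic 2 and 7.8% to 9.27% in the others. Reads not aligned uniquely were 31.2% and 34.3% to 37% in the same order. The part of the markers or of these shares in the values of asymptomatic 2 was not tested. Mmp14 had 56.2 CPM there (next 25.1 CPM), Adamts2 6.88 CPM (next 3.25 CPM), Loxl4 3.59 CPM (next 1.36 CPM) and Loxl1 2.29 CPM (next 0.845 CPM).

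Mmp15, a membrane-type protease, had 64.4 CPM in AIH 4 (next 24.5 CPM) and 77.2 CPM in asymptomatic 1 (next 49.1 CPM). Mmp8 had 0.931 CPM in asymptomatic 5 (next 0.259 CPM). Adamts14 was lowest in asymptomatic 3, at 0.188 CPM, where the next had 1.11 CPM. Among controls, control 2 was highest for Adamts6, at 2.20 CPM (next 1.17 CPM), and lowest for Adamts12, at 0.170 CPM (next 0.272 CPM).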

How the results depend on the processing

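Scaling, filters, DESeq2, limma-voom and fits of only the groups compared gave 13 to 17 members called in AIH against control (14 as reported) and 18 to 24 in AIH against asymptomatic (21 as reported). In asymptomatic against control, limma-voom called 4 and the other settings 0. Within females, AIH against control gave 9 calls, and within males 0. Sex as a term left 8 calls in AIH against asymptomatic, within males 1, and the share of unaligned reads as a term 0. Leaving out each library gave 7 (without AIH 3) to 15 calls in AIH against control, with 9 without control 3, 15 (without AIH 3) to 22 in AIH against asymptomatic, and 0 to 0 in asymptomatic against control. For the 74 results by gene that the text gives as fold changes or finds at an unadjusted p under 0.05, signs turned as follows. Within males, where AIH has 1 library, these were Mmp15 (0.29), Mmp8 (-0.12) and Adamts13 (-0.06) against asymptomatic, and Adamts15 (-0.04) and Adamts6 (-0.38) against control. With the unaligned share, Mmp15 (0.01) and Adamts13 (-0.42) turned against asymptomatic, Adamts6 (-0.10) against control, and Mmp14 (0.000178) in asymptomatic against control. Limma-voom turned Timp3 against asymptomatic (-0.31) and Adamts6 against control (-0.11), sex as a term Adamts6 (-0.09), and library totals Adamts13 (0.05) and Tet2 (0.10) against control. Over the fits without 1 library, Timp3 spanned -0.35 (without AIH 3) to 0.31 against asymptomatic, turning also without asymptomatic 3 (-0.05). Against control, Timp3 spanned -0.03 (without AIH 3) to 0.63, Mmp12 -0.16 (without AIH 3) to 1.37 (without control 3), Adamts13 -0.32 to 0.12 (without control 2), Adamts6 -0.17 (without AIH 5; -0.03 without control 3) to 0.41, and Tet2 -0.21 to 0.08 (without AIH 2). Among these, edgeR had called only Mmp8. The other 41 member tests, 0 of them called, turned sign in 59 of 784 fits. In the 74, planned settings left 1169 values on their side of the threshold, took 100 below it and brought 31 past it, and added settings left 64 and took 71 below it.

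Library totals alone moved the median of all genes to 0.14 against control and 0.17 against asymptomatic, with 89.8% and 88.9% of all calls higher, beside 72.0% and 64.2% with TMM. Relative to that median, the members stood at 1.11 and 1.59, beside 1.12 and 1.64. Mmp8 was not called by limma-voom against control. No paired analysis was possible because replicate numbers only follow the order of deposit. Genes under 3 counts in a group have no resolved level at this depth.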
